A study of Sus scrofa with 4 samples.

Results

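The signals of the TGF-beta family examined here are 9 pig genes: the ligands TGFB1, TGFB3, BMP2, BMP4, BMP5, BMP7 and INHBA, the activin receptor ACVR2A and the activin antagonist FST. They were chosen as a list of symbols, with earlier results of these data known. Every probe of the array whose RefSeq accession belongs to any of them was taken. This gave 14 probes, of 43603 probes on the array, and 9 genes, of 3020 genes that could be named. TGFB1, TGFB3, BMP4, INHBA and FST have a pair of probes each, which read the same transcript accession and are not replicates, and the other genes have 1 probe.

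Total RNA of the thymus of Minnesota miniature swine was measured on 4 porcine Agilent arrays with 1 dye, 2 from IL2RG KO pigs and 2 from WT pigs. The KO pigs carry the monoallelic mIL2RG+/Δ69-368 change made with TALEN nucleases, written IL2RG+/- in the sample labels, and the WT pigs are labelled wildtype. IL2RG encodes the receptor chain that the cytokines of the interleukin 2 family share. The KO pigs were cloned from edited cells, and by the study's account most KO pigs had no thymus at all, so that the KO arrays show the small thymus of the few animals that had one. The labels give neither age nor sex, and do not say whether the WT arrays come from separate animals, so the p-values measure the spread between these samples, which may be partly technical.

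TGF-beta family ligands are secreted as dimers and bind pairs of type I and type II receptor kinases, which phosphorylate SMAD proteins that enter the nucleus. TGF-beta and activin ligands act mainly through SMAD2 and SMAD3, and bone morphogenetic proteins (BMPs) act mainly through SMAD1, SMAD5 and SMAD9. In the thymus, BMP4 from the mesenchyme is known to act on the epithelium, TGF-beta to act on regulatory T cells, and activin A and follistatin to affect thymocyte maturation.

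The 2 probes of the targeted gene, IL2RG, were lower in both KO arrays than in both WT arrays. On the brighter probe the normalized log2 signal, which is the log2 signal minus the array's 75th percentile, read -3.15 and -3.29 on the KO arrays and -0.13 and 0.52 on the WT arrays. The differences between KO and WT were -3.41 and -4.38 on the log2 scale, and where these probes lie relative to the edited exon was not examined here. The thymus label can be read against cell markers, which differed widely between the genotypes. By the rule for a call given in the next paragraph, 21.0% of all tested probes were higher in KO and 13.0% lower. All 12 thymocyte markers tested fell below WT in KO (median log2 difference -2.58), and their summed signal, in multiples of each array's 75th percentile, was 29.7 and 28.7 in KO against 171 and 242 in WT. All 7 proliferation markers tested were lower as well, and their summed signal was 21.0 and 23.4 in KO against 112 and 113 in WT. Of the 5 thymic epithelium markers tested, 4 were higher in KO, with a summed signal of 233 and 222 against 71.8 and 48.2, while EPCAM was not called and defining genes such as FOXN1 had no named probe. The markers of fibroblasts (3 of 4 higher, summed signal 115 and 175 in KO, 63.1 and 27.3 in WT), endothelium (3 of 4, 18.5 and 20.4, 6.79 and 4.45), macrophages (4 of 4, 60.5 and 75.7, 18.2 and 15.0) and fat cells (3 of 6, 40.1 and 117, 17.6 and 9.61) were never called lower. Of the 6 muscle markers tested, 2 were lower and 0 higher, with a summed signal of 49.9 and 47.5 in KO and 65.2 and 81.6 in WT. The sums of epithelium, fibroblasts and fat cells rest mainly on their brightest probes, those of KRT8, DCN and FABP4. They do not show a rise shared by all markers of a type. The median log2 differences of these lists were 1.86, 1.59 and 2.91. RAG2 and MYL1 entered the test through WT alone, and PLIN1, a fat cell marker called higher, through KO alone. In such tissue RNA, fewer cells of a type and less RNA per cell cannot be told apart, and the part of these cell types in the results that follow was not tested.

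Of the 9 genes, 6 were higher in KO thymus, which were TGFB3, BMP4, BMP5, BMP7, ACVR2A and FST, and 0 were lower. A gene was called when its brightest probe had a Benjamini-Hochberg adjusted p under 0.05 over all tested probes in limma and a fold change of at least 2. By the same rule 34.0% of the 31959 tested probes of the array were called, 21.0% as higher in KO and 13.0% as lower. The median log2 difference was 1.55 over the 9 genes and -0.06 over all tested probes. As the 9 genes were chosen with earlier results of these data known, their distance from all tested probes is a description only. At the level of probes, 9 of 13 tested were called higher and 0 lower, with a median of 1.29. All 13 were well above background on all 4 arrays, so none entered the test through 1 genotype alone. On each of the 13 tested probes the arrays of the genotypes did not overlap, which also held for 78.7% of all tested probes. With each array left out in turn, the difference on the brightest probe ranged from 1.05 to 1.54 for TGFB3 and from 1.58 to 2.24 for BMP4. It ranged from 1.44 to 1.65 for FST, 2.12 to 2.35 for ACVR2A, 3.64 to 3.82 for BMP5 and 3.52 to 3.67 for BMP7. The calls of TGFB3 and BMP4 did not stand without KO replicate 1, a fit with 1 KO array. Counts of calls are not compared between fits with 1 array left out, and the medians of these fits are given at the end. With scaling to the array median instead of the percentile, the median of all tested probes moved from -0.06 to -0.32 and that of the 9 genes from 1.55 to 1.29.

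**Figure D1:**
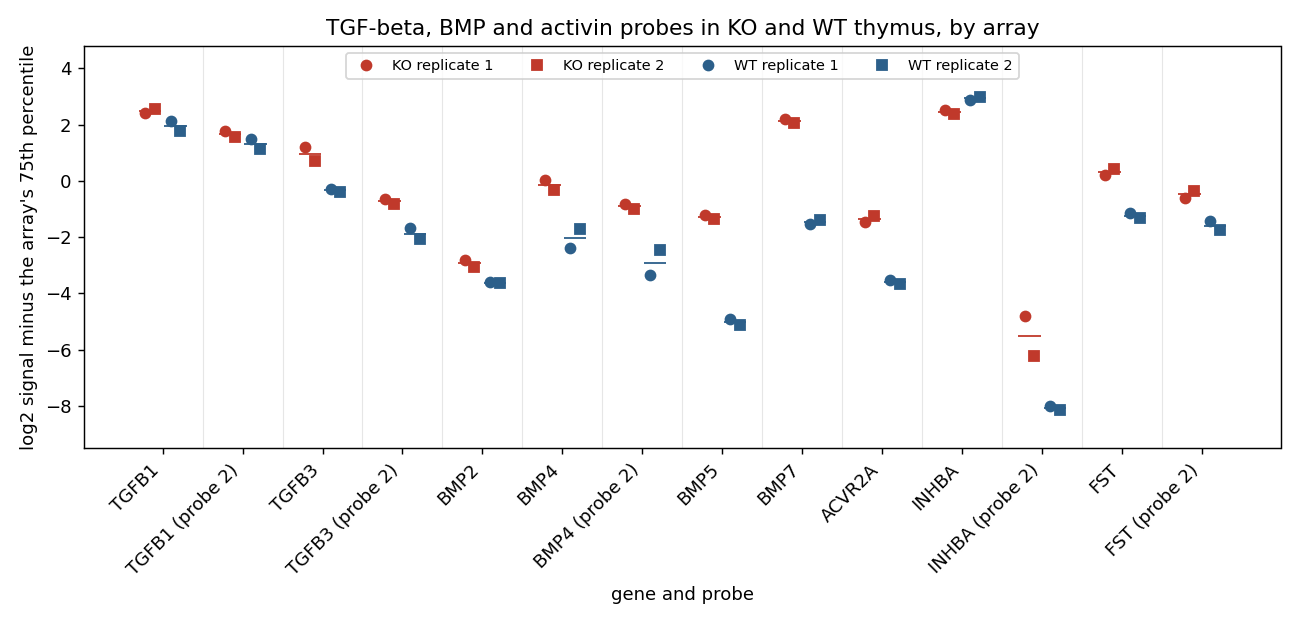
Normalized log2 signal (log2 signal minus the array's 75th percentile, vertical axis) of the 14 probes, with 1 point per array, circles for replicate 1, squares for replicate 2 and short lines for the mean of each genotype. The KO points lie above the WT points on every probe except the brighter INHBA probe, but the second INHBA probe was too dim to give a direction. Levels of different probes cannot be compared with each other.

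Among the BMP ligands, BMP5 and BMP7 had the largest differences of the 9 genes. BMP5, a ligand of the same subgroup as BMP7 that is known for its roles in skeletal and organ development, gave normalized log2 signals of -1.20 and -1.36 in KO and -4.92 and -5.10 in WT. The genotypes were far apart compared with the gap between the arrays of each. The difference was 3.73 on the log2 scale (SE 0.17, 95% confidence interval 3.27 to 4.19, n = 2 arrays per genotype), a fold change of 13.3 with a limma adjusted p of 0.00205. The WT signals of this probe were low, although above background, and with the normexp background correction the difference was 1.91 (adjusted p = 0.000480 in limma), so that the call stood and its size depended on how the background was removed.

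BMP7, a ligand known for its part in kidney and eye development and for brown fat formation, had 2.20 and 2.07 in KO and -1.54 and -1.39 in WT. The arrays of each genotype were close together here also. The difference was 3.60 (SE 0.16, interval 3.16 to 4.03), a fold change of 12.1 with a limma adjusted p of 0.00205. The differences within slide 1 and within slide 2, each holding 1 array of either genotype, were 3.59 and 3.61, and over all alternatives the value ranged from 3.31 to 3.67. The confidence intervals of BMP5 and BMP7 overlapped, and both lay above those of the other genes.

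BMP4, the ligand that thymic mesenchyme is known to supply to the epithelium, had 0.05 and -0.31 in KO and -2.37 and -1.71 in WT on its brighter probe. Both KO arrays were above both WT arrays, and the WT arrays were farther apart (SD 0.47) than the KO arrays (SD 0.25). The difference was 1.91 (SE 0.29, interval 1.12 to 2.69), a fold change of 3.75 with a limma adjusted p of 0.00950. The second probe gave -0.83 and -0.98 in KO, -3.36 and -2.45 in WT and a difference of 1.99 (adjusted p = 0.0126 in limma). Without KO replicate 1 the differences were 1.73 and 1.92 on the brighter and the second probe, with limma adjusted p-values of 0.0535 and 0.0605, and without KO replicate 2 the second probe gave 2.07 (adjusted p = 0.0541), so that the sizes stood while the calls were lost.

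BMP2, a ligand close to BMP4 in sequence and known for bone and heart development, had -2.81 and -3.05 in KO and -3.60 and -3.63 in WT. The groups did not overlap, but the difference was 0.68 (SE 0.17, interval 0.23 to 1.14), which is 1.61-fold. Its limma adjusted p was 0.0322, and BMP2 was not called because the fold change was under 2. With the normexp correction the difference was 0.29 (adjusted p = 0.151 in limma).

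TGFB3, the TGF-beta ligand known for its role in palate fusion and lung development, had 1.21 and 0.72 in KO and -0.27 and -0.38 in WT on its brighter probe. The KO arrays were both above the WT arrays and differed from each other more (SD 0.35) than the WT arrays did (SD 0.08). The difference was 1.29 (SE 0.23, interval 0.69 to 1.90), a fold change of 2.45 with a limma adjusted p of 0.0128. Within slide 1 it was 1.60 and within slide 2 it was 0.99, and leaving out KO replicate 1 gave 1.05 and a limma adjusted p of 0.0820. The second probe had -0.63 and -0.82 in KO and -1.68 and -2.06 in WT, and its difference of 1.15 (adjusted p = 0.0142 in limma) lay close to the 2-fold limit. It fell below that limit under scaling to the median (0.89), the normexp correction (0.94) and without WT replicate 2 (0.95), and lost its adjusted p without KO replicate 1 (1.05) and without KO replicate 2 (1.24).

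TGFB1, the main TGF-beta ligand of the immune system and one that restrains T cells, was not called on either probe. The brighter probe had 2.43 and 2.56 in KO and 2.14 and 1.76 in WT. Both KO arrays were above both WT arrays, but the gap between the WT arrays was of the same order as the gap between the genotypes. The difference was 0.54 (SE 0.20, adjusted p = 0.0863 in limma), and its 95% interval reached up to 1.08, so that a 2-fold rise lay inside it. The second probe gave 1.77 and 1.55 in KO, 1.48 and 1.15 in WT and a difference of 0.35 (interval -0.19 to 0.88, adjusted p = 0.215 in limma).

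**Figure D2:**
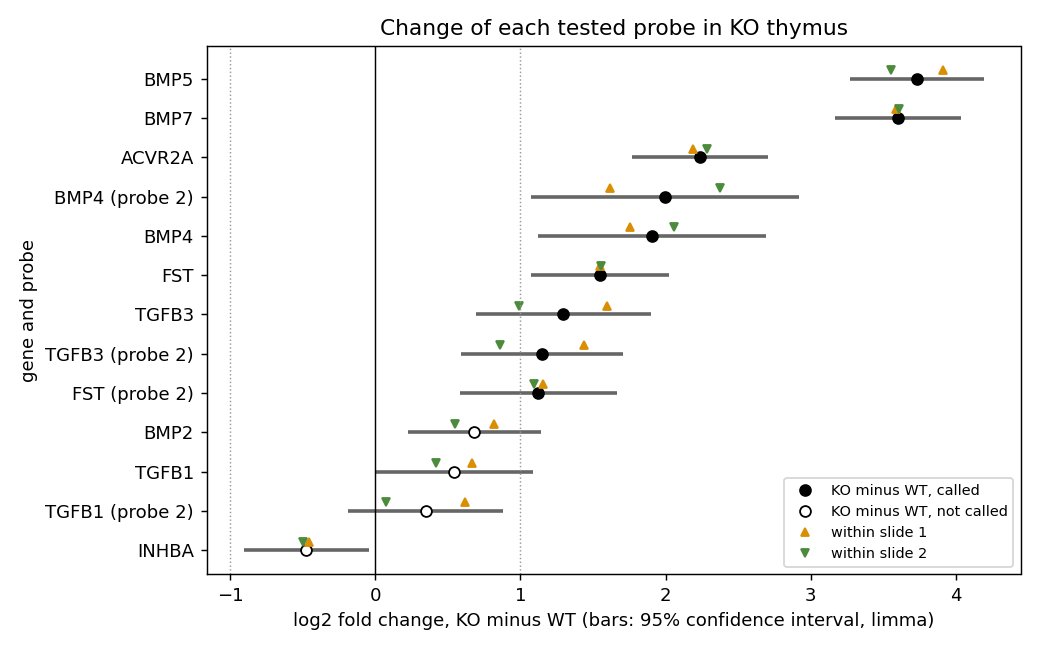
Log2 fold change of KO minus WT (horizontal axis) of the 13 tested probes, with 95% confidence intervals from limma as bars, filled points for called and open points for not called probes, and triangles for the difference within each slide. BMP5 and BMP7 lie above 3, ACVR2A and both BMP4 probes near 2, and the TGFB1, BMP2 and INHBA probes inside the dotted lines at a 2-fold change.

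On the activin side, the receptor and the antagonist were higher in KO on their brightest probes, and the ligand subunit was not called. INHBA encodes the beta A subunit, whose homodimer is activin A. Its brighter probe had 2.53 and 2.38 in KO and 2.88 and 2.99 in WT, and was the only one of the 14 probes at which both KO arrays lay below both WT arrays. The difference was -0.48 (SE 0.16, interval -0.91 to -0.04, adjusted p = 0.0697 in limma), not a call, and it kept its sign in all alternatives, from -0.74 to -0.34. The second INHBA probe was dim, being well above background on 1 of 2 KO arrays and 0 of 2 WT arrays, and was not tested. It had -4.79 and -6.23 in KO and -8.00 and -8.14 in WT. Only KO replicate 1 gave a measured level on it, so no fold change is drawn from this probe.

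ACVR2A, a type II receptor that binds activins and several BMPs including BMP7, had -1.46 and -1.23 in KO and -3.51 and -3.65 in WT. The groups were well separated. The difference was 2.24 (SE 0.17, interval 1.77 to 2.70), a fold change of 4.71 with a limma adjusted p of 0.00252, and it was 2.19 within slide 1 and 2.28 within slide 2. With the normexp correction it was 1.41 (adjusted p = 0.00178 in limma).

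FST encodes follistatin, a secreted protein that binds activins and some BMPs and keeps them from their receptors. Its brighter probe had 0.21 and 0.42 in KO and -1.13 and -1.33 in WT. The difference was 1.55 (SE 0.18, interval 1.07 to 2.03), a fold change of 2.93 with a limma adjusted p of 0.00496, and the slides gave 1.54 and 1.55. The second probe moved the same way, with -0.60 and -0.34 in KO and -1.43 and -1.75 in WT and a difference of 1.12 (adjusted p = 0.0140 in limma). Like the second TGFB3 probe it lay near the limit of 2-fold, and its call was lost under scaling to the median (0.86), the normexp correction (0.93) and without KO replicate 1 (1.25), KO replicate 2 (0.99) or WT replicate 2 (0.96).

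**Figure D3:**
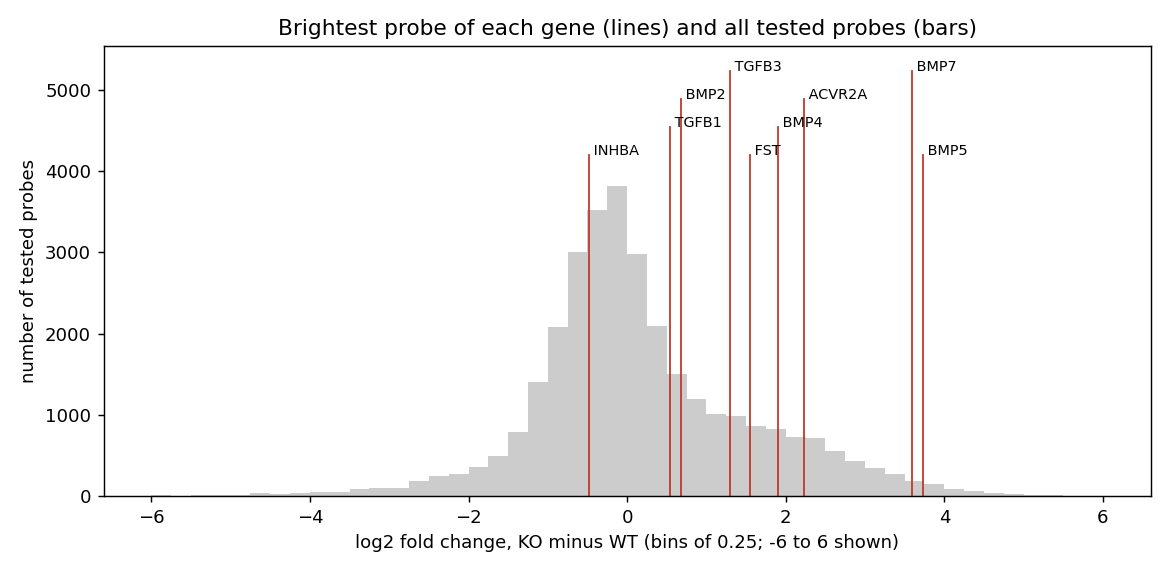
Number of tested probes (vertical axis) by log2 fold change of KO minus WT (horizontal axis, bins of 0.25), with a red line at the brightest probe of each of the 9 genes. INHBA lies below 0 and the other 8 genes above it, and BMP5 and BMP7 stand in the sparse upper end.

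The rest of the pathway was read through a list of 89 other genes, of which 40 had a named probe and 37 were tested. Of these 37 genes, 11 were higher in KO, 3 were lower and 23 were not called, with a median log2 difference of 0.28. With only probes well above background on all 4 arrays, 35 genes were tested, of which 10 were higher and 3 lower. Of all such probes 30.5% were called. Without KO replicate 2 fewer of the 37 genes were called, and so were fewer of all tested probes. That fit assumed the lone KO array to vary like the WT pair, so the drop is not read as a property of this list. The shares of the 37 genes can be read against the 21.0% of all tested probes that were higher and the 13.0% that were lower. This list too was chosen with earlier results of these data known.

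Of the other ligands, 8 were tested, with a median of -0.10. GDF15, a stress-induced ligand, was higher by 1.86 (adjusted p = 0.00469 in limma). MSTN, myostatin, which limits muscle growth, was higher by 3.13 (adjusted p = 0.00489 in limma). It entered the test through KO alone, as its WT signal was well above background on 1 of 2 arrays. On WT replicate 1 it read -6.41, under the lowest signal well above background of that array (-5.72), so 3.13 is not a measured size. GDF11, which is close to myostatin in sequence, was lower by a difference of -1.26 and on 2 of its 3 probes. Its brightest probe lost the call without KO replicate 1 (-1.21), without KO replicate 2 (-1.32) and with the normexp correction, where it was under 2-fold (-0.89). INHA, the alpha subunit that pairs with a beta subunit to form inhibins, had a difference of 0.92 and was not called, but was called without WT replicate 2 (1.01). BMP15, GDF5, GDF9 and AMH were not called either, although 1 of 3 GDF5 probes was higher and 1 of 3 AMH probes lower. BMP3 and BMP6 were not well above background on any array.

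Of the 9 receptors tested, 3 were higher and 1 was lower, and the type I receptors of BMPs had the largest differences. BMPR1B had -0.66 and -1.02 in KO and -3.62 and -4.50 in WT. BMPR1A had -0.73 and -0.94 in KO and -3.06 and -3.49 in WT. Both KO arrays were far above both WT arrays for either receptor, with differences of 3.22 (SE 0.35, adjusted p = 0.00450 in limma) and 2.43 (SE 0.22, adjusted p = 0.00312), and every named probe of both genes was called higher. BMPR2, the type II receptor dedicated to BMPs, had a difference of -0.11 and was not called (adjusted p = 0.641 in limma). TGFBR3, betaglycan, which presents TGF-beta and binds inhibin, was higher by 1.55, but by 0.74 with the normexp correction, under 2-fold. TGFBR1, the type I receptor of TGF-beta, had 0.61 (adjusted p = 0.0369 in limma), under the 2-fold limit. ACVR2B, the other type II activin receptor, was lower by a difference of -1.21 (adjusted p = 0.0319 in limma), opposite to ACVR2A. That call was lost without KO replicate 2 (-0.83), without WT replicate 2 (-1.15) with the normexp correction (-0.42) and without the filter on dim probes (adjusted p = 0.0535 in limma). ENG, ACVR1B and AMHR2 were not called, and AMHR2 was called lower without WT replicate 1 (-1.74).

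Among the SMADs, SMAD1 and SMAD7 were higher and SMAD2, SMAD3 and SMAD4 were not called. SMAD1, which carries BMP signals, had a difference of 1.93 (adjusted p = 0.00293 in limma). SMAD7, an inhibitory SMAD that the pathway itself induces, had 2.44 (adjusted p = 0.00216 in limma) and was higher on both probes. SMAD2 had -0.04, SMAD3 0.28 and SMAD4, the common partner, -0.29, with 1 of 5 SMAD4 probes lower.

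Of the 9 target genes tested, 3 were higher and 0 lower, with a median of 0.56. ID1, an inhibitor of helix-loop-helix factors that BMPs are known to induce, had 5.22 and 5.11 in KO and 2.15 and 1.50 in WT. Both KO arrays were well above both WT arrays, with a difference of 3.34 (SE 0.27, adjusted p = 0.00261 in limma). The other ID genes did not share this size, with 0.92 for ID2, -0.42 for ID3 and 0.56 for ID4, and none of them was called, while ID2 was called higher under quantile normalization (1.11). PMEPA1, a feedback inhibitor of TGF-beta signals, was higher by 1.61. COL1A2, a collagen chain, was higher by 1.39 (adjusted p = 0.0314 in limma). Its call was lost without KO replicate 1 (1.71), without KO replicate 2 (1.07), without WT replicate 2 (1.06), with the replicate block (adjusted p = 0.0558 in limma) and without the filter on dim probes (adjusted p = 0.0519). CTGF, KLF10 and ACTA2 had 0.26, -0.82 and -0.53 and were not called. Of the 4 KLF10 probes 2 were lower, and its brightest probe was called lower under scaling to the median (-1.08) and without WT replicate 1 (-1.01). Of the 4 ACTA2 probes 1 was higher.

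Of the extracellular partners, ITGAV, the integrin chain that helps to release latent TGF-beta, was lower by a difference of -1.14 (adjusted p = 0.00928 in limma) and was lower on all 5 of its probes. Its brightest probe lost the call without KO replicate 1 (-1.14) and without KO replicate 2 (-1.15). THBS1, another activator, had -0.04 on its brightest probe while the other 5 of its 6 probes were called higher. DCN, decorin, a matrix protein that binds TGF-beta, was higher by 1.79 (adjusted p = 0.0432 in limma) on all 4 probes. Its brightest probe lost the call without KO replicate 1 (2.10), without KO replicate 2 (1.48), with the replicate block (adjusted p = 0.0595 in limma) and without the filter on dim probes (adjusted p = 0.0677). DCN, COL1A2, ENG and ACTA2 are also in the marker lists of fibroblasts, endothelium and muscle given above. NOG, an antagonist of BMPs, had 0.63 and was not called, with -0.85 within slide 1 and 2.10 within slide 2. It entered the test through KO alone, as its WT signal was well above background on 1 of 2 arrays. On WT replicate 1 NOG read -5.95, under the lowest signal well above background of that array (-5.72), so 0.63 is not a measured size. ITGB8 and FBN1 were not called either, with 1 of 2 ITGB8 probes higher.

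**Figure D4:**
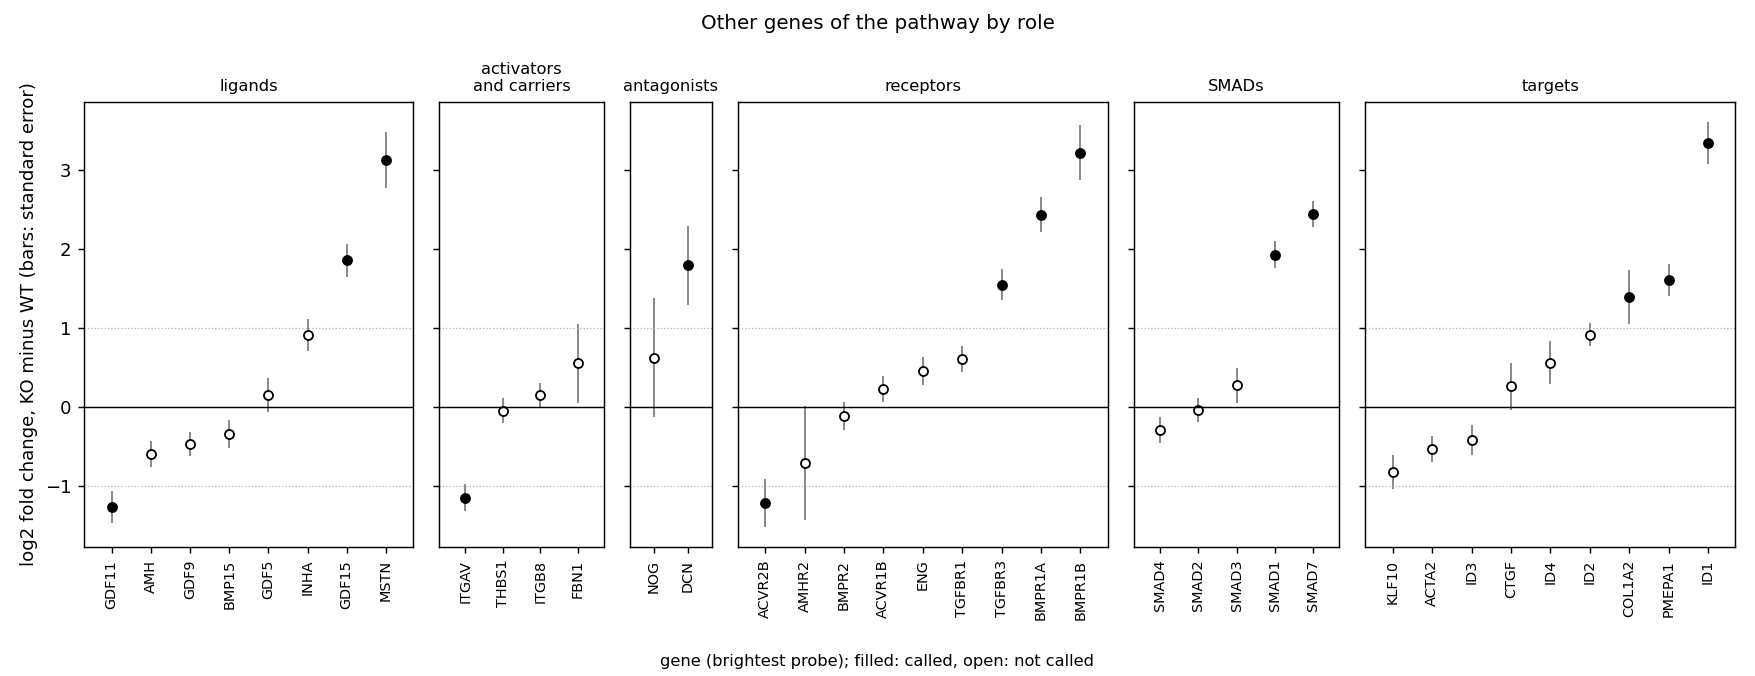
Log2 fold change of KO minus WT (vertical axis) of the brightest probe of the 37 tested genes of the wider pathway, ordered by value within each role, with the limma standard error as bars and filled points for called genes. Within receptors, SMADs and targets the called genes BMPR1A, BMPR1B, SMAD1, SMAD7 and ID1 stand above 1.9, while most of the other genes lie between the dotted lines at a 2-fold change.

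The named genes with the most similar pattern were found by the root mean square difference over the 4 arrays, after each probe was centred on its own mean, among 2691 genes. With 4 arrays such a likeness is a description only. The nearest were STX11 for FST (0.0177), NME2 for TGFB1 (0.0193), BAZ1A for INHBA (0.0198), CHMP4C for BMP5 (0.0329), NRAP for BMP2 (0.0384), CA11 for TGFB3 (0.0439), C1QC for ACVR2A (0.0570), CXCR6 for BMP7 (0.0698) and CRABP1 for BMP4 (0.0999). The second nearest were RADIL, LHB, URM1, MCT7, IL4R, SLA-DOB, CLCA1, EFNB2 and GAL in the same order. On the WT arrays EFNB2 read -7.07 and -7.05, under the lowest signals well above background there (-5.72 and -5.92). Its likeness to BMP7 thus rests in part on WT values that are not measured levels. Of the 9 genes BMP4, whose WT arrays were far apart, had the loosest match.

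**Figure D5:**
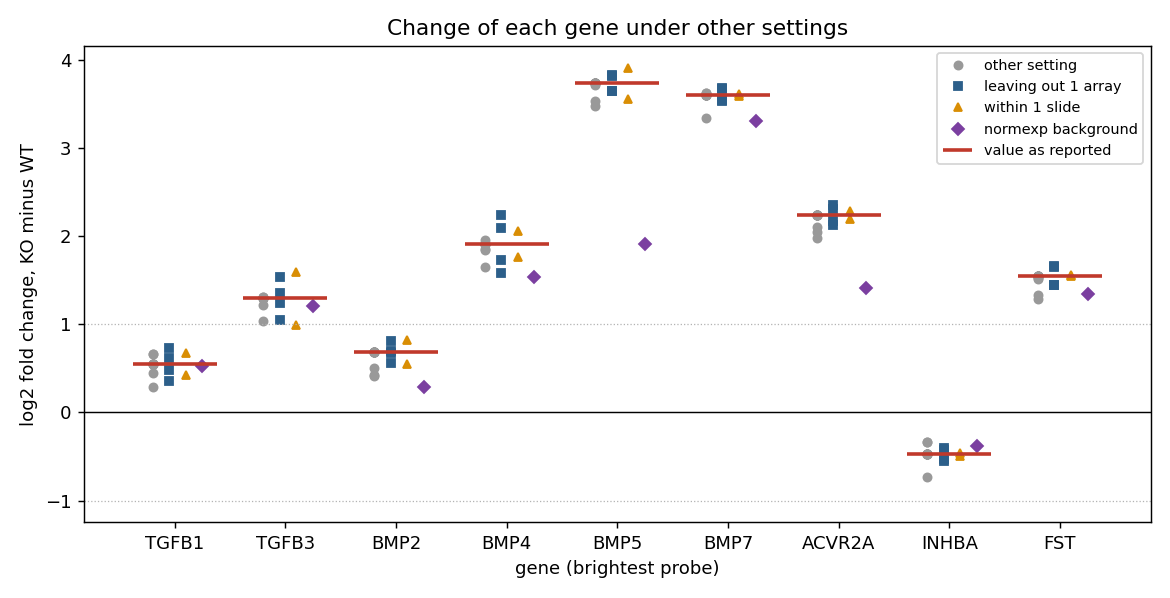
Log2 fold change of KO minus WT (vertical axis) of the brightest probe of each of the 9 genes under other settings (grey), with 1 array left out (blue), within 1 slide (orange) and with the normexp background correction (purple), beside the reported value (red line). Every point of a gene keeps the sign of the red line, and normexp lowers BMP5 to 1.91 and ACVR2A to 1.41.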

How the data were processed

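RNA of 4 thymus samples (2 KO, 2 WT) was hybridised to porcine Agilent arrays. The intensity values were deposited by the authors as output of Feature Extraction 11.0.1.1, with background subtracted and no normalization between arrays. The deposited files also hold median intensities and marks (other values) for spots that are well above background, saturated or outliers. The authors deposited in addition a table of log2 values of 27974 probes, which in the files proved quantile normalized and not centred by gene (median 8.49 in each column, and correlated with the log2 processed signal at 0.9998 or more). The methods name 2 dyes, whereas the labels and files hold 1 channel.

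Control and outlier spots were left out, spots of a probe were averaged, and the log2 processed signal minus each array's 75th percentile was compared between genotypes in limma 3.58.1 (lmFit, then eBayes; R 4.3.3). A probe was tested if KO or WT had it well above background on 2 of 2 arrays, which held for 31959 probes, all p-values were adjusted over them by Benjamini-Hochberg, and a call needed an adjusted p under 0.05 and a 2-fold change. The code was tested on simulated data. Python 3.11.15, pandas 2.3.3 and matplotlib 3.10.9 made tables and plots. Between 67.9% and 74.5% of probes were well above background per array, and no spot was saturated. The number of arrays limits the precision: a permutation of the labels could reach no p below 0.333.

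A RefSeq accession was given for 7111 probes, and 6686, or 15.3% of the array, found a symbol in the RefSeq table of Sscrofa11.1, which was used for names alone. A gene stands for its brightest probe. Every member is named, other pathway genes and markers by their lists, and for each member the nearest pair of genes. The members and lists were chosen with earlier results of these data known. The alternatives were other scalings, background corrections and filters, the authors' log2 values, slide and replicate blocks, the unpaired t-test that the study names (here called the methods' t-test), other fold limits and each array left out. The normexp correction used median intensities and an offset of 50. A gene of the pathway list is not reported here, and the list was computed without it. The spleen arrays of the study were not analysed here.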

Additional observations from a re-analysis of the deposited data

How the results depend on the processing

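No sign reversed in any alternative for the 13 tested probes, and of 243 values of single probes 203 stayed within their call and spread. The methods' t-test with Bonferroni correction called 0 of the 13 probes, 0 of the 9 genes, 0 of the 37 pathway genes and 0 of the 48 markers, and 0 of all 31959 probes, against 8610 at an unadjusted p under 0.05 with a 2-fold change and 10882 by limma. With Benjamini-Hochberg adjustment it called 2 probes and 2 genes (BMP5 and BMP7), 1 pathway gene (SMAD7) and 9 markers, and 1489 of all probes. Unadjusted, it called 9 probes, 6 genes, 11 pathway genes and 32 markers. At a fold change of at least 4, 3 probes, 3 genes (BMP5, BMP7 and ACVR2A) and 5 pathway genes were called. Of all 31959 probes 4880, or 15.3%, were called at that limit. With 1 array left out, between 4 and 9 probes and between 9 and 16 pathway genes were called, and 6423 and 6090 of all probes without KO replicate 1 and without KO replicate 2. The lone array of a genotype was then assumed to vary like the pair of the other. The normexp correction called 6610 of all probes. Scaling to the median gave 47.9% of all calls as higher in KO, against 61.7% as reported. Replicate numbers did not pair the arrays: deviations of the same number correlated at -0.290 across probes. With the replicate block 9 probes, 6 genes, 12 pathway genes and 36 markers were called, and 33.3% of all probes. With the crossed pairing, which is the slide block, 9 probes, 6 genes, 14 pathway genes and 39 markers were called, and 34.8% of all probes. The second INHBA probe was too dim to give a direction. The cause of these changes was not tested.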
